A study of Mus musculus with 3 samples.

Results

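The cytosolic ribosomal protein genes were followed as a group through 3 single-cell RNA libraries of sorted mouse bone marrow progenitors. Members were taken by symbol: Rpl or Rps followed by a digit, together with Rplp0, Rplp1, Rplp2 and Rpsa, without rows carrying -ps and without the Rps6k kinases. The rule found 87 of the 27998 gene rows. Of these, 77 encode subunits of the ribosome (46 of the large and 31 of the small subunit), 9 are paralogs of such genes (Rpl3l, Rpl6l, Rpl7l1, Rpl10l, Rpl22l1, Rpl36al, Rpl39l, Rps27l and Rps27rt), and Rps19bp1, which encodes a protein that binds RPS19, enters by its symbol alone. Fau, whose protein product is fused to a ubiquitin-like domain, and Gnb2l1, which encodes RACK1, are genes of ribosomal proteins that the symbol rule does not reach.

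All cells came from bone marrow of C57BL/6 mice and each group was 1 library. ILCpro_KO, whose source name is EILP_KO, held cells of genotype Tcf7EGFPnull/- sorted as Lin-, Kit+, 2B4+, a4b7+ and Tcf7+. ILCpro_WT, with the source name EILP_WT, held Tcf7EGFP/+ cells from that same gate. ALP held Tcf7EGFP/+ cells sorted as Lin-, Kit+, 2B4+, a4b7-, with high Flt3 and positive for IL-7Ra. Both ILCpro gates carry a Tcf7+ criterion and all 3 groups carry an EGFP allele of Tcf7, the gene for the transcription factor TCF-1, so no library comes from animals without a modified Tcf7 locus. The number, age and sex of the animals are not given in the sources used here.

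Each cytosolic ribosome is built from a small subunit, which decodes mRNA, and a large subunit, which joins amino acids. Cells need the proteins of both subunits in matched amounts, and the genes are among the most highly expressed of any proliferating blood progenitor. Their mRNAs share a start made of a cytosine followed by a run of pyrimidines, the 5′ TOP element, through which mTOR signalling controls how far they are translated. Loss of 1 copy of several of these genes causes Diamond-Blackfan anaemia, a failure of red cell production, and other members have roles in lymphocytes, such as Rpl22 in αβ T cell development.

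The start windows of 8 members described below, at the high and the low end of the ratios between libraries, are shown to let the pyrimidine run be seen. Each is 30 bases of RefSeq sequence on GRCm38.p6, 15 before and 15 from the annotated start on, written 5′ to 3′ on the gene's strand. Capitals mark a run of at least 8 bases, each C or T, counted from a C no more than 10 bases from the annotated start. Pyrimidines directly before that C, as in Rpl7a and Rpl38, are not counted. The first 5 hold such a run and the last 3 do not.
Rpl15 (chr14:18270972-18271001, minus strand): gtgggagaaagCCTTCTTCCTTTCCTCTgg
Rpl7a (chr2:26910792-26910821, plus strand): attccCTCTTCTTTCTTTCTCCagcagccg
Rpl35 (chr2:39005117-39005146, minus strand): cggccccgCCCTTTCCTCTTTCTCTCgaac
Rps27 (chr3:90213634-90213663, minus strand): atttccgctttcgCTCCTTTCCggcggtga
Rpl38 (chr11:114668565-114668594, plus strand): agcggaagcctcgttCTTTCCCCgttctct
Rpl10 (chrX:74270801-74270830, plus strand): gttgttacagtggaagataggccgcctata
Rpl9 (chr5:65391417-65391446, minus strand): acgcagggccctgacggattacaagaacgt
Rpl27 (chr11:101442230-101442259, plus strand): acgctctgttcctgtctgctgctcgtgctg

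Of the 87 members, 66 had a start in the RefSeq table. A run of this kind, searched on the gene's own strand and at any listed start, stood at 24 of them (36.4%), against 2525 of 26959 other genes (9.37%). With the first listed start of each gene alone the shares were 31.8% of members and 7.98% of other genes. An annotated start can lie some bases away from the base where transcription begins, so a window without a run says only that these letters are not in it. The run was found both beside members that were higher in ILCpro_KO than in ILCpro_WT (Rpl15, Rpl7a) and beside members that were lower (Rps27, Rpl35).

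Kept cells numbered 716 in ILCpro_KO, 1829 in ILCpro_WT and 810 in ALP, with 4384061, 6094683 and 4115605 UMIs in that order and median depths of 5309, 2897 and 4544.5 UMIs per cell. A UMI here is 1 tagged 3′ end of a captured mRNA molecule, so no length scaling was applied. Tcf7 itself stood at 57.3 CPM, that is per 1000000 UMIs, in ILCpro_KO, 362 CPM in ILCpro_WT and 1.46 CPM in ALP; a 3′ tag need not lie in the disrupted part of the gene. Flt3, a gate marker of ALP, stood at 67.7 CPM in ILCpro_KO, 17.6 CPM in ILCpro_WT and 288 CPM in ALP. Of 8 markers of early innate lymphoid progenitors, 8 in ILCpro_KO, 8 in ILCpro_WT and 5 in ALP reached 10 CPM. Their summed level was 1215 CPM in ILCpro_KO, 2115 CPM in ILCpro_WT and 209 CPM in ALP. The 12 neutrophil and monocyte markers summed to 4757 CPM in ILCpro_KO, 495 CPM in ILCpro_WT and 998 CPM in ALP, and cells of clusters led by genes of other lineages made up 120, 57 and 22 cells of the 3 libraries. These counts leave out the cluster led by Aif1, Cd74 and H2-Aa, which met 10 of 12 conventional dendritic cell markers. That cluster held 130 ILCpro_KO, 85 ILCpro_WT and 6 ALP cells. ILCpro_KO and ILCpro_WT shared 1 cell barcode, ILCpro_WT and ALP shared 4, and ILCpro_KO and ALP shared 0.

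Ribosomal protein mRNA was a large part of all UMIs in these progenitors, and its share was lowest in ILCpro_KO and highest in ILCpro_WT. It came to 32.7% of UMIs in ILCpro_KO (95% exact interval 32.6 to 32.7), 37.7% in ILCpro_WT (37.7 to 37.7) and 34.6% in ALP (34.6 to 34.6). Cells of a library spread far more widely than this: the 25th and 75th percentiles of cells were 29.9% and 36.0% in ILCpro_KO, 34.6% and 40.7% in ILCpro_WT, and 32.4% and 37.6% in ALP. The medians over cells were 33.0% in ILCpro_KO, 38.0% in ILCpro_WT and 35.0% in ALP. Each group being a single library, the spread between replicates is unknown and no test was possible; the intervals cover counting error only.

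The count of ribosomal UMIs in a cell ran the other way from the share. The median cell held 1750 ribosomal UMIs in ILCpro_KO, 1110 in ILCpro_WT and 1608 in ALP. ILCpro_WT therefore had the fewest ribosomal UMIs per cell and the largest share of them, beside its lower depth. Less mRNA per cell and less capture of mRNA cannot be told apart in these counts, and a share that is higher for the ribosomal genes is lower for the rest of the genes by construction.

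Depth was examined by taking cells of like UMI count. In each of the 6 depth ranges from 2000 UMIs upward the order was the same, with ILCpro_KO lowest and ILCpro_WT highest. Between 3000 and 4000 UMIs the shares were 32.7% in ILCpro_KO (124 cells), 38.8% in ILCpro_WT (409 cells) and 35.9% in ALP (153 cells). Between 5000 and 7000 UMIs they were 33.1% in 167 ILCpro_KO cells, 37.1% in 179 ILCpro_WT cells and 35.2% in 188 ALP cells. From 10000 UMIs upward, ILCpro_KO (32.58%, 92 cells) and ALP (32.62%, 43 cells) stood together and 12 ILCpro_WT cells stood at 39.97%. The ILCpro_KO and ALP intervals overlapped in that range (32.5 to 32.7 and 32.5 to 32.8).

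Both subunits carried the difference alike. The large subunit took 17.9% of UMIs in ILCpro_KO, 20.7% in ILCpro_WT and 18.8% in ALP, and the small subunit 14.3%, 16.6% and 15.3%. The ratio of large to small subunit UMIs was 1.246 in ILCpro_KO, 1.246 in ILCpro_WT and 1.230 in ALP. The mitochondrial share, a common sign of RNA quality, had medians of 1.08% in ILCpro_KO, 0.766% in ILCpro_WT and 1.10% in ALP, so it was lowest in the library whose ribosomal share was highest; its part in the difference was not tested. Without the clusters of other lineages the ribosomal shares were 32.6%, 37.8% and 34.7% in ILCpro_KO, ILCpro_WT and ALP. The dendritic-like cluster led by Aif1 and Cd74 stayed in these shares.

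A small tail of cells held little ribosomal mRNA. Cells under 20% numbered 16 of 716 in ILCpro_KO (2.23%, exact interval 1.28 to 3.60), 1 of 1829 in ILCpro_WT (0.0547%, 0.00138 to 0.304) and 7 of 810 in ALP (0.864%, 0.348 to 1.77). Of the 16 ILCpro_KO cells, 9 lay in the cluster led by the neutrophil granule genes S100a8, Elane and S100a9, and 11 lay in clusters of other lineages. The lowest cell of each library stood at 4.20%, 17.5% and 4.24%, and the highest at 43.7%, 51.2% and 45.6%, in ILCpro_KO, ILCpro_WT and ALP.

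The ribosomal share was lower in cells scored as G2/M than in cells scored as G1, in all 3 libraries. Cycle classes were assigned from S and G2/M gene scores on cells thinned to 1000 UMIs, and the ribosomal genes are in neither list. In ILCpro_KO the share was 34.6% in G1 (261 cells), 32.5% in S (234 cells) and 31.4% in G2/M (221 cells). In ILCpro_WT it was 39.1% in G1 (1012 cells), 37.4% in S (363 cells) and 36.0% in G2/M (450 cells). In ALP it was 36.2% in G1 (231 cells), 35.0% in S (272 cells) and 33.6% in G2/M (307 cells). Mki67, a proliferation antigen that is itself in the G2/M list and so partly sets the classes, stood at 270 CPM in G2/M and 9.23 CPM in G1 of ILCpro_KO, at 228 CPM in G2/M and 6.38 CPM in G1 of ILCpro_WT, and at 320 CPM in G2/M and 14.1 CPM in G1 of ALP.

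G2/M minus G1 came to -3.26 percentage points in ILCpro_KO (counting range -3.42 to -3.11), -3.09 in ILCpro_WT (-3.22 to -2.97) and -2.59 in ALP (-2.77 to -2.42). Within cells of 2000 to 5000 UMIs the differences were -3.76, -3.81 and -1.44 points in that order. Within single clusters of a library the difference was smaller where most ILCpro_WT and ALP cells lie. In cluster 2 of ILCpro_WT the share was 40.4% in G2/M and 40.7% in G1, in cluster 3 it was 37.0% in G2/M and 37.3% in G1, and in cluster 1 of ALP it was 36.2% in G2/M and 36.6% in G1. In cluster 0 it was 32.7% in G2/M and 35.3% in G1 of ILCpro_KO, and 37.9% in G2/M and 39.6% in G1 of ILCpro_WT. In ILCpro_KO the share was 32.1% in G2/M and 34.3% in G1 of cluster 4, and 29.6% in G2/M and 32.4% in G1 of cluster 7. How far the library-wide difference lies between clusters that hold more and fewer G2/M cells was not tested. The gap between libraries was present within each class: in G1 cells alone ILCpro_KO lay at 34.6%, ILCpro_WT at 39.1% and ALP at 36.2%. Free RNA from broken cells reaches every cell of a library and was not measured here, so its part in the classes was not tested.

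**Figure D1:**
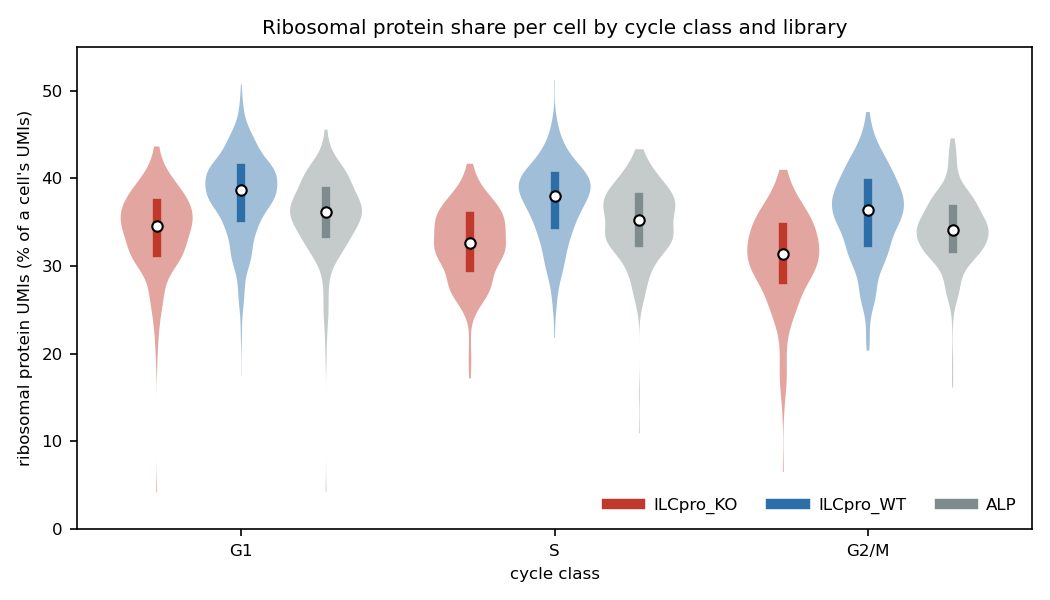
Share of a cell's UMIs from ribosomal protein genes (vertical axis, percent) for G1, S and G2/M cells of each library; shapes show the spread of cells, thick bars the 25th to 75th percentiles of cells and white points the median. ILCpro_KO lies lowest and ILCpro_WT highest in each class, and each library declines across the 3 classes, with 34.6%, 32.5% and 31.4% of summed UMIs in G1, S and G2/M of ILCpro_KO.

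Most members shared the decline across the cycle. Scaled to the library total, 75 of 83 members with enough UMIs were lower in G2/M than in G1 in ILCpro_KO, 68 of 83 in ILCpro_WT and 67 of 83 in ALP, with median log2 ratios of -0.13, -0.12 and -0.11. These counts and medians follow the fall of the summed share. The share of all genes was not counted for G2/M over G1, neither for these counts nor for the calls below. Scaled to the sum over all members, and calling a member apart when its log2 ratio was at least 0.322 from 0, 2 were higher and 1 lower in G2/M in ILCpro_KO, 3 higher and 2 lower in ILCpro_WT, and 1 higher and 2 lower in ALP. The members leading this were paralogs and low members. Rps27l, the paralog of Rps27 whose gene is induced by p53, held 2.56 of every 1000 ribosomal UMIs in G2/M and 2.02 in G1 in ILCpro_KO, 2.08 and 1.48 in ILCpro_WT, and 1.95 and 1.68 in ALP. Rps27rt, a retrotransposed copy of Rps27 by name, ran opposite, with 2.24 in G2/M and 2.84 in G1 in ILCpro_KO, 2.63 and 3.19 in ILCpro_WT, and 3.22 and 4.20 in ALP.

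Clustering on genes other than the ribosomal, mitochondrial, cycle, sex-linked and marker genes gave 14 clusters, of which 10 held at least 50 cells of some library. They are called here by number and leading genes. Among ILCpro_WT cells, those led by Fgf3 and Tnni1 (cluster 2) had the highest share, 40.3%, and those led by Stab2, Icos and Pxdc1 (cluster 9) the lowest, 31.9%. Between them lay cluster 0 (Nfil3, Cpa3) at 38.7%, cluster 4 (Bhlhe41, Cd7) at 38.8%, cluster 3 (Cacna1e, Lmo4, Rora) at 37.2%, the dividing cluster 6 (Hist1h1b, Ube2c) at 35.4% and cluster 7 (Aif1, Cd74, H2-Aa) at 33.3%. The range over clusters within ILCpro_WT was therefore wider than the gap between any pair of libraries.

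Cluster 9 also held Icos, Arg1 and Cxcr6 among its leading genes and 10850 CPM of the G2/M gene list, against 1647 CPM in cluster 2 and 1889 CPM in cluster 3. It met 6 of 10 markers of the innate lymphoid precursor and 6 of the group 2 list, while cluster 3 met 10 of 10 of the precursor list. Clusters 6 (11712 CPM of that list) and 9 thus had low shares beside much cell division. Cluster 7, which met 10 of 12 conventional dendritic cell markers, was low in both ILCpro libraries and held 8444 CPM of the list. Its ILCpro_WT share (33.3%) lay below that of cluster 6 (35.4%), whose list level was higher. List levels are summed over libraries, and the part of cell division in the cluster differences was not tested.

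In ILCpro_KO the largest clusters were 4 (195 cells), 0 (163 cells) and 7 (130 cells), and their shares were 33.2%, 34.3% and 30.7%. The dividing cluster 6 stood at 30.8% in 62 cells, and cluster 8, led by S100a8 and Elane, at 31.5% in 64 cells. In each of the 4 clusters with at least 50 cells of both ILCpro libraries, ILCpro_KO lay below ILCpro_WT: 34.3% against 38.7% in cluster 0, 33.2% against 38.8% in cluster 4, 30.8% against 35.4% in cluster 6, and 30.7% against 33.3% in cluster 7. The same held for 3 of 3 such clusters at a coarser setting and 5 of 5 at a finer one, and for 3 of 3 clusters of at least 30 cells within 2000 to 5000 UMIs. ALP cells fell mainly into cluster 1, led by Dntt and Cox6a2 (36.1%, 524 cells), and its dividing counterpart cluster 5 (33.1%, 243 cells).

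**Figure D2:**
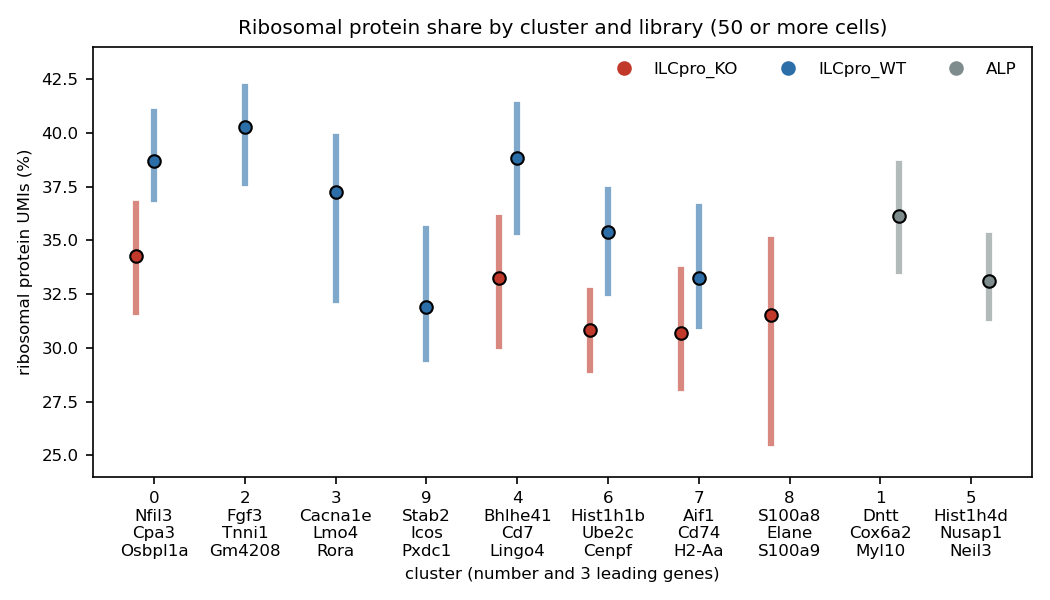
Ribosomal protein share (percent of UMIs, axis not from 0) by cluster and library, for clusters with at least 50 cells of that library; points give the share of summed UMIs and bars the 25th to 75th percentiles of cells. ILCpro_KO points lie below ILCpro_WT points in clusters 0, 4, 6 and 7, and ILCpro_WT spans 31.9% to 40.3%.

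The members themselves differed in level by orders of magnitude. Among those with the most UMIs over all libraries were Rpl41, which encodes the smallest ribosomal protein, Rpl32, Rps19 and Rpl13. Rpl41 stood at 10996 CPM in ILCpro_KO, 13194 CPM in ILCpro_WT and 10578 CPM in ALP. Rps19, the gene most often mutated in Diamond-Blackfan anaemia, stood at 8981 CPM in ILCpro_KO, 10574 CPM in ILCpro_WT and 9577 CPM in ALP. All 87 members had a UMI in every library, and 84 reached 50 CPM in each. The other 3 were paralogs known from other tissues: Rpl10l, a testis gene, at 2.51, 2.46 and 3.40 CPM, Rpl3l, a muscle gene, at 1.37, 0.492 and 3.40 CPM, and Rpl39l, a testis gene, at 2.74, 0.820 and 1.21 CPM in ILCpro_KO, ILCpro_WT and ALP.

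Scaled to the library total, most members lay on the side that the summed share sets. In ILCpro_KO over ILCpro_WT, 71 of 84 members were below 0 on the log2 scale and the median was -0.18, against 0.14 over the 3040 genes measured. With the same threshold of 0.322, 6 members were called higher and 9 lower, where the rule calls 27.5% of all genes higher and 8.16% lower. In ILCpro_WT over ALP, 63 of 84 were above 0, with a median of 0.13 against -0.10 over 3068 genes, and 1 member was called higher and 9 lower, beside 12.5% and 28.0% of all genes. In ILCpro_KO over ALP, 63 of 84 were below 0, with a median of -0.07 against 0.03 over 3120 genes, and 0 were called higher and 6 lower, beside 15.5% and 13.7% of all genes. No member reached 2-fold in any of the 3 comparisons on either scale, while 2.93% of genes were 2-fold higher and 1.45% lower in ILCpro_KO over ILCpro_WT, 3.19% higher and 5.41% lower in ILCpro_WT over ALP, and 3.01% higher and 2.53% lower in ILCpro_KO over ALP. These comparisons share libraries and are not independent of each other.

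To see which members part from the group, each was scaled to the sum over members, which shifts the log2 ratio by 0.21 in ILCpro_KO over ILCpro_WT, by -0.12 in ILCpro_WT over ALP and by 0.08 in ILCpro_KO over ALP. Most then stood close to 0. The 10th and 90th percentiles of members were -0.12 and 0.35 in ILCpro_KO over ILCpro_WT, -0.42 and 0.12 in ILCpro_WT over ALP, and -0.20 and 0.13 in ILCpro_KO over ALP. Past the threshold were 9 higher and 2 lower members in ILCpro_KO over ILCpro_WT, 0 and 9 in ILCpro_WT over ALP, and 0 and 5 in ILCpro_KO over ALP. The share of all genes was not counted on this scale, neither for these counts nor for the groups of members below. The next paragraphs give the members past the threshold by what they do.

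Rpl15, a large subunit protein mutated in some families with Diamond-Blackfan anaemia, is the clearest case among genes whose 3′ sequence is their own. It lies at chr14:18267823-18271391 and shares none of the 50-base stretches of its last 300 transcript bases with another annotated gene. Its level was 1212 CPM in ILCpro_KO (95% counting interval 1180 to 1245), 867 CPM in ILCpro_WT (844 to 891) and 1497 CPM in ALP (1460 to 1535). Per 1000 ribosomal UMIs that is 3.71, 2.30 and 4.33. The share was 1.61-fold higher in ILCpro_KO than in ILCpro_WT (interval 1.55 to 1.68), 0.531 times as high in ILCpro_WT as in ALP (0.512 to 0.551) and 0.858 times as high in ILCpro_KO as in ALP (0.827 to 0.890). ILCpro_WT thus stood apart on the low side.

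Rpl10, an X-linked gene for a protein added late in large subunit maturation and mutated in some T cell leukaemias, had the highest ratio of ILCpro_KO over ILCpro_WT among the 84 members with at least 50 CPM. It held 526 CPM in ILCpro_KO (505 to 548), 338 CPM in ILCpro_WT (323 to 352) and 552 CPM in ALP (530 to 575). Its share of ribosomal UMIs was 1.80-fold higher in ILCpro_KO than in ILCpro_WT (1.69 to 1.91), 0.561 times as high in ILCpro_WT as in ALP (0.528 to 0.595), and alike in ILCpro_KO and ALP, with a ratio of 1.01 (0.951 to 1.07). The other X-linked members did not follow it. In ILCpro_KO over ILCpro_WT the log2 ratio was 0.08 for Rps4x, -0.08 for Rpl39 and -0.11 for Rpl36a, beside 0.84 for Rpl10.

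Rpl7a, Rpl27 and Rpl9, all of the large subunit, had the same order of libraries, and the small subunit gene Rps12 did too. Rpl7a stood at 983 CPM in ILCpro_KO, 756 CPM in ILCpro_WT and 1152 CPM in ALP. Rpl27 stood at 171 CPM in ILCpro_KO, 128 CPM in ILCpro_WT and 215 CPM in ALP. Rpl9 stood at 352 CPM in ILCpro_KO, 312 CPM in ILCpro_WT and 445 CPM in ALP. Rps12 stood at 119 CPM in ILCpro_KO, 106 CPM in ILCpro_WT and 135 CPM in ALP. All 4 were lowest in ILCpro_WT, with log2 ratios against the ribosomal sum of 0.58, 0.61, 0.37 and 0.37 in ILCpro_KO over ILCpro_WT and of -0.73, -0.86, -0.63 and -0.46 in ILCpro_WT over ALP.

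Rpl23a, a protein at the exit of the nascent chain tunnel, was low in both ILCpro libraries, with 273 CPM in ILCpro_KO, 258 CPM in ILCpro_WT and 403 CPM in ALP. Its log2 ratio against the ribosomal sum was 0.28 in ILCpro_KO over ILCpro_WT, short of the threshold, -0.76 in ILCpro_WT over ALP and -0.47 in ILCpro_KO over ALP.

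A few members stood low in ILCpro_KO instead. Rps27, a zinc-binding small subunit protein, held 109 CPM in ILCpro_KO (99.3 to 119), 191 CPM in ILCpro_WT (181 to 203) and 172 CPM in ALP (160 to 185). Its share of ribosomal UMIs in ILCpro_KO was 0.656 times that in ILCpro_WT (0.588 to 0.730) and 0.669 times that in ALP (0.594 to 0.752), while ILCpro_WT over ALP gave 1.02 (0.928 to 1.12). Rpl35, of the large subunit, held 1799 CPM in ILCpro_KO, 2690 CPM in ILCpro_WT and 2396 CPM in ALP. Its ratio was 0.772 in ILCpro_KO over ILCpro_WT (0.751 to 0.793) and 0.795 in ILCpro_KO over ALP (0.772 to 0.819). For both genes ILCpro_KO was the library that stood apart and the other libraries lay together.

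Rps28, a small subunit gene mutated in Diamond-Blackfan anaemia, was graded, with 3680 CPM in ILCpro_KO, 4585 CPM in ILCpro_WT and 5248 CPM in ALP. Its log2 ratio against the ribosomal sum was -0.11 in ILCpro_KO over ILCpro_WT, -0.32 in ILCpro_WT over ALP, just short of the threshold, and -0.43 in ILCpro_KO over ALP. Rpl38, known from the mouse Tail short mutation and from the translation of Hox mRNAs, came to -0.27, 0.18 and -0.09 in these comparisons, and Rpl37a to -0.22, 0.12 and -0.10. Ratios on the high side of ILCpro_WT over ALP were small, and among the highest were 0.19 for Rpl41, 0.18 for Rpl38, 0.17 for Rps21 and 0.13 for Rps15a. In ILCpro_KO over ALP the highest subunit members were Rpl5 (0.20), Rpl8 (0.20) and Rpl13a (0.17).

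**Figure D3:**
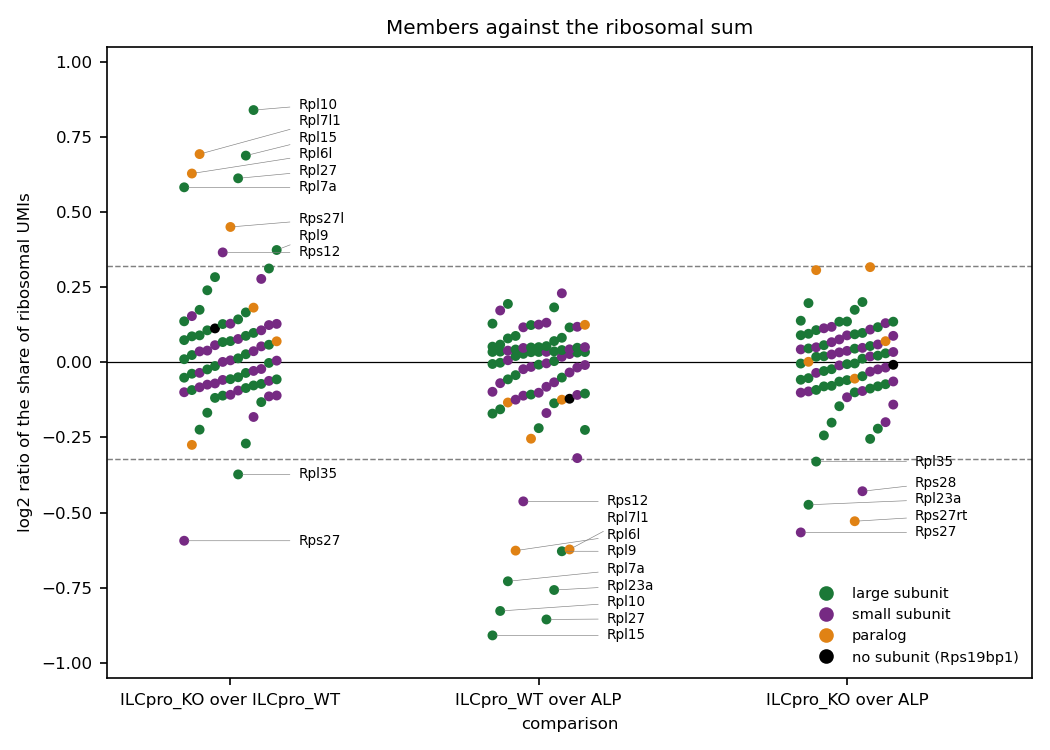
Log2 ratio of each member's share of ribosomal UMIs (vertical axis) in the 3 comparisons, for the 84 members with at least 50 CPM; dashed lines mark the threshold of 0.322 and members beyond them are named. Members gather at 0, with 9 above and 2 below the lines in ILCpro_KO over ILCpro_WT, 9 below in ILCpro_WT over ALP and 5 below in ILCpro_KO over ALP. The share of all genes was not counted on this scale.

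Of the 6 paralogs that reached 50 CPM, 3 were past the threshold on the high side of the ribosomal sum in ILCpro_KO over ILCpro_WT: Rpl7l1, Rpl6l and Rps27l. Of the 77 subunit genes, 6 were higher and 2 lower in that comparison. In ILCpro_WT over ALP, 0 paralogs were higher and 2 lower (Rpl6l and Rpl7l1). In ILCpro_KO over ALP, 0 were higher and 1 lower (Rps27rt). Rpl7l1, related to Rpl7, held 95.6 CPM in ILCpro_KO, 66.8 CPM in ILCpro_WT and 96.2 CPM in ALP. Rpl6l, related to Rpl6, held 1086 CPM in ILCpro_KO, 810 CPM in ILCpro_WT and 1149 CPM in ALP. Both were low in ILCpro_WT and alike in the other libraries, with log2 ratios of 0.07 and 0.00 in ILCpro_KO over ALP.

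Rps27l differed from its parent Rps27 in direction. It held 800 CPM in ILCpro_KO (773 to 827), 674 CPM in ILCpro_WT (654 to 695) and 679 CPM in ALP (654 to 705). Its ratio was 1.37 in ILCpro_KO over ILCpro_WT (1.31 to 1.43) and 1.247 in ILCpro_KO over ALP (1.19 to 1.31), so ILCpro_KO was its high library as it was the low library of Rps27. Rps27rt held 793 CPM in ILCpro_KO, 1108 CPM in ILCpro_WT and 1213 CPM in ALP. Its log2 ratio against the ribosomal sum was -0.53 in ILCpro_KO over ALP, past the threshold. Rpl36al, related to Rpl36a, held 1096 CPM in ILCpro_KO, 1115 CPM in ILCpro_WT and 938 CPM in ALP. Rpl22l1, the paralog that Rpl22 represses, held 732 CPM in ILCpro_KO, 805 CPM in ILCpro_WT and 805 CPM in ALP, and Rpl22 itself 1650, 2030 and 1819 CPM, so that both stayed close to the ribosomal sum in ILCpro_KO over ILCpro_WT, at log2 ratios of 0.07 and -0.09.

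Subunit genes with a known shared role were also counted as groups. The acidic stalk, which recruits the elongation factors, had no member apart from the sum: in ILCpro_KO over ILCpro_WT, Rplp0 came to 0.24, Rplp1 to 0.09 and Rplp2 to -0.05 on the log2 scale. Of 7 members of the 5S particle and other proteins that bind MDM2 when ribosome assembly fails, only Rps27 was apart in ILCpro_KO over ILCpro_WT. The highest of them was Rpl5, at 0.17. Of 17 Diamond-Blackfan anaemia genes, 2 (Rpl15 and Rpl27) were higher and 1 (Rpl35) lower in that comparison, with a median of 0.01. Rps27a, whose product is cleaved to ubiquitin and a small subunit protein, came to 0.13. Rps19bp1 stood at 81.0 CPM in ILCpro_KO, 86.1 CPM in ILCpro_WT and 86.3 CPM in ALP.

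Several members that parted by library did so across its cell groups. They were picked from the same summed cells that these clusters divide, so the ranges are not separate support. Rpl15 held 3.18 to 3.95 of 1000 ribosomal UMIs over the 5 ILCpro_KO clusters of at least 50 cells, 2.04 to 2.57 over the 7 ILCpro_WT clusters and 4.24 to 4.40 over both ALP clusters. Rpl10 held 1.47 to 1.73 in ILCpro_KO, 0.786 to 1.36 in ILCpro_WT and 1.53 to 1.65 in ALP. Rpl7a held 2.76 to 3.43 in ILCpro_KO, 1.62 to 2.19 in ILCpro_WT and 3.05 to 3.68 in ALP. For these 3 genes no ILCpro_WT cluster reached the lowest ILCpro_KO cluster. Rpl35 ran opposite, with 5.30 to 5.60 in ILCpro_KO, 6.87 to 7.55 in ILCpro_WT and 6.87 to 6.95 in ALP.

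Within the 4 clusters that both ILCpro libraries fill, the log2 ratios of ILCpro_KO over ILCpro_WT kept their sign for Rpl15, Rpl10, Rps27 and Rpl35. Rpl15 came to 0.76 in cluster 0, 0.75 in cluster 4, 0.56 in cluster 6 and 0.82 in cluster 7. Rpl10 came to 0.69, 0.86, 0.74 and 0.25 in these clusters, with its smallest value in cluster 7, the cluster led by Aif1 and Cd74. Rps27 came to -0.48, -0.35, -0.65 and -0.83 on 51 to 240 UMIs per library and cluster, and Rpl35 to -0.41, -0.30, -0.40 and -0.37. The counting intervals of the ratio held 1 for Rpl10 in cluster 7 (1.19, 0.976 to 1.46) and for Rps27 in cluster 4 (0.781, 0.573 to 1.08), and lay on 1 side of it for the other clusters of these 4 genes. These 4 genes were picked from the same summed cells that the clusters divide, so the kept signs and the intervals are not separate support. Clusters of 1 library share its preparation and sequencing and are not replicates of its genotype.

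Over all 84 members, 12 had every ILCpro_KO cluster above every ILCpro_WT cluster in their share of ribosomal UMIs. Another 3 (Rpl35, Rpl37a and Rps27) had every ILCpro_KO cluster below. The share of all genes was not counted on this scale. Scaled to the library total the counts were 5 above and 9 below, beside 3.45% and 0.724% of 3040 genes. On that scale ILCpro_WT clusters lay all above the ALP clusters for 8 members and all below for 9, beside 5.9% and 13.3% of 3068 genes, and ILCpro_KO clusters all above the ALP clusters for 1 and all below for 18, beside 11.8% and 9.9% of 3120 genes, with only 2 ALP clusters to clear. The 12 were the large subunit genes Rpl4, Rpl7, Rpl7a, Rpl9, Rpl10, Rpl15, Rpl23a and Rpl27, the small subunit genes Rps6 and Rpsa, and the paralogs Rpl6l and Rpl7l1.

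**Figure D4:**
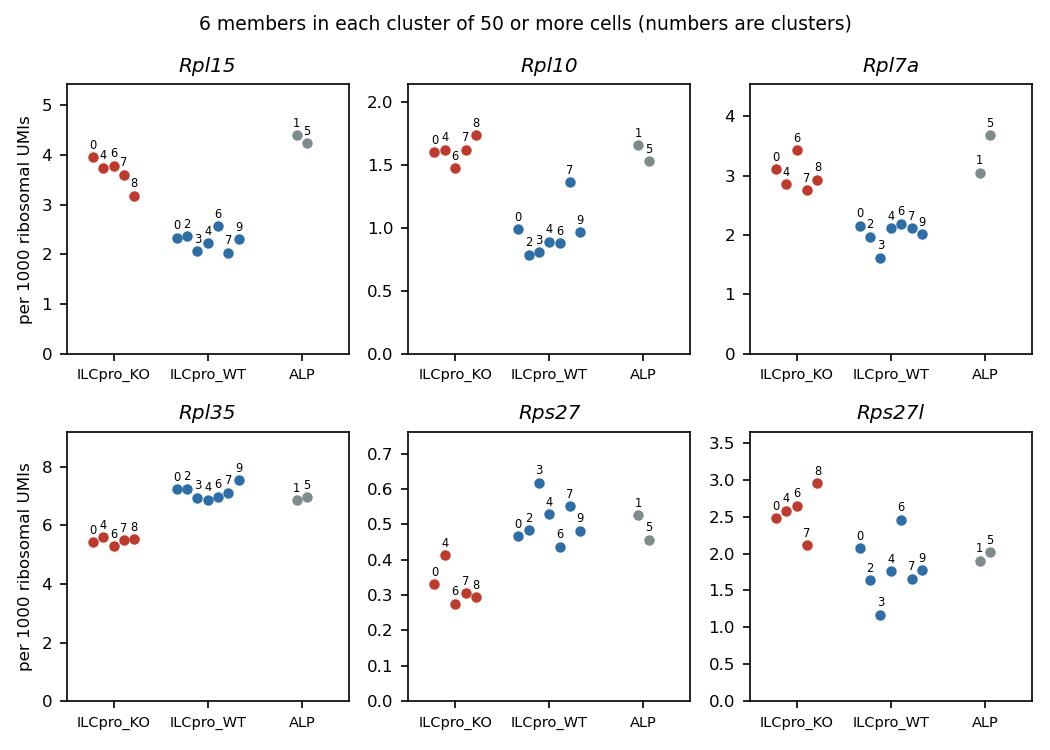
Share of ribosomal UMIs (per 1000, from 0) of 6 members in each cluster of at least 50 cells, by library; each point is 1 cluster, marked with its number. Rpl15, Rpl10 and Rpl7a have no ILCpro_WT cluster in the ILCpro_KO range, Rpl35 and Rps27 have each ILCpro_KO cluster below each ILCpro_WT cluster, and the ranges of Rps27l overlap.

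Rps27l behaved otherwise, with the widest range over clusters of any member with at least 500 CPM. It held 2.81 of 1000 ribosomal UMIs in cluster 8 (S100a8, Elane) and 1.17 in cluster 3 (Cacna1e, Lmo4, Rora), a 2.40-fold range. Within ILCpro_WT alone it held 2.46 in the dividing cluster 6, 2.08 in cluster 0, 1.64 in cluster 2 and 1.17 in cluster 3. Its ILCpro_KO clusters (2.11 to 2.95) and ILCpro_WT clusters (1.17 to 2.46) overlapped. Rpl7a (2.21-fold), Rpl15 (2.10-fold) and Rps27rt (1.68-fold) came next, and clusters here are summed over libraries, so that their ranges hold the library differences too. Rpl41 reached 46.7 of 1000 in cluster 9 and 28.8 in cluster 1.

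Near-identical copies limit how far single members can be read. Of the members, 20 share at least 80% of the 50-base stretches in the last 300 bases of their transcript with another annotated gene. Among them are Rpl10, Rpl9 and Rps27 (100%), Rpl35 (96.0%), Rps12 (94.8%), Rps27rt (88.4%), Rpl27 (83.3%), Rpl23a (80.9%) and Rpl7a (80.5%). Of these 20, 5 were higher and 2 lower than the ribosomal sum in ILCpro_KO over ILCpro_WT. Of 39 members that share less than 80% but more than 0, 2 were higher and 0 lower. Of 24 measured members that share none, 1 was higher, Rpl15, and 0 lower. Over the 83 members assessed, Spearman's rho between shared percentage and absolute log2 ratio was 0.14 in ILCpro_KO over ILCpro_WT. It was 0.05 in ILCpro_WT over ALP and 0.12 in ILCpro_KO over ALP. How reads that fit several genes were assigned is not given in the sources used here, so the values of the 20 are uncertain. Rpl6l was not assessed for shared sequence.

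UMIs were also counted in the 16 rows whose symbols carry -ps. Whether these UMIs come from the copies or from their parent genes was not tested. The 16 rows took 0.926% of UMIs in ILCpro_KO, 0.836% in ILCpro_WT and 1.08% in ALP. Rps12-ps3 held 1773 CPM in ILCpro_KO, 1806 CPM in ILCpro_WT and 1973 CPM in ALP, which is 93.7%, 94.5% and 93.6% of the sum of Rps12 and its copy. Copies made up 66.3%, 70.0% and 67.1% of the sum for Rpl10, 84.4%, 84.1% and 81.6% for Rpl23a, 73.1%, 70.8% and 72.3% for Rpl9, and 70.8%, 76.8% and 69.5% for Rpl27, in ILCpro_KO, ILCpro_WT and ALP. The levels printed above for these 5 genes are therefore a minor part of what is assigned to parent and copy together.

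With parent and copy added, the ratios kept their direction in ILCpro_KO over ILCpro_WT and in ILCpro_WT over ALP. In ILCpro_KO over ILCpro_WT the log2 ratio against the ribosomal sum was 0.67 for Rpl10 with its copy, 0.49 for Rpl9, 0.58 for Rpl7a, 0.29 for Rpl27, 0.31 for Rpl23a and 0.18 for Rps12. In ILCpro_WT over ALP these sums came to -0.69, -0.70, -0.73, -0.47, -0.54 and -0.25. Rpl10, Rpl9 and Rpl7a thus stayed past the threshold in both comparisons, while Rpl27 fell short of it in ILCpro_KO over ILCpro_WT and Rps12 in both. In ILCpro_KO over ALP the sums came to -0.02, -0.21, -0.15, -0.18, -0.24 and -0.07 in the same order of genes, so that Rpl23a, low there on its own row (-0.47), was short of the threshold with its copy.

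**Figure D5:**
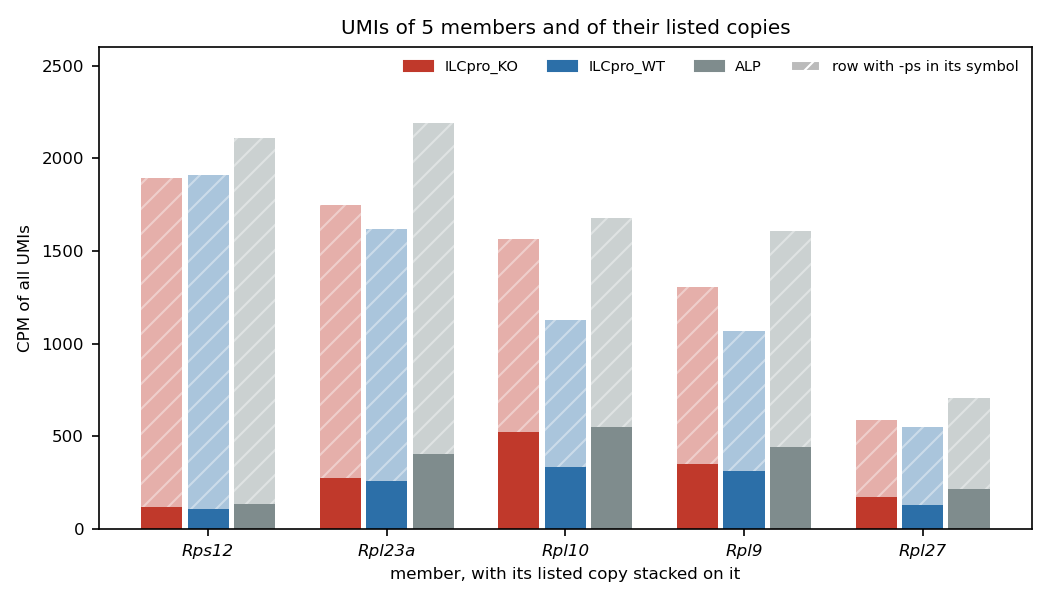
Level (CPM of all UMIs, from 0) of 5 members, solid, with the -ps row or rows of the same gene stacked on them, hatched, in each library. The copy holds most of the UMIs of each pair, 93.7% for Rps12 in ILCpro_KO, and the summed bars of Rpl10 and Rpl9 are lowest in ILCpro_WT.

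Fau, outside the symbol rule, was lowest in ILCpro_WT as well, with 124 CPM in ILCpro_KO, 105 CPM in ILCpro_WT and 165 CPM in ALP. Scaled to the library total its log2 ratio was 0.22 in ILCpro_KO over ILCpro_WT and -0.60 in ILCpro_WT over ALP. Gnb2l1 was flat, with 1588 CPM in ILCpro_KO, 1650 CPM in ILCpro_WT and 1436 CPM in ALP. Across the 83 members assessed for shared sequence, Spearman's rho between level and log2 ratio was -0.46 in ILCpro_KO over ILCpro_WT, 0.32 in ILCpro_WT over ALP and 0.03 in ILCpro_KO over ALP. The level is that of the second library, which is also the denominator of the ratio, members share libraries and depth, and these values are descriptions.

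Other genes of the translation machinery were counted in the same way, scaled to the library total, where the ribosomal members had a median of -0.18 and all genes 0.14 in ILCpro_KO over ILCpro_WT. Of elongation factors, 0 of 6 were past the threshold in any comparison, with medians of 0.01, 0.00 and 0.00 in ILCpro_KO over ILCpro_WT, ILCpro_WT over ALP and ILCpro_KO over ALP. Eef1a1, which delivers tRNA to the ribosome, stood at 4851 CPM in ILCpro_KO, 4909 CPM in ILCpro_WT and 5032 CPM in ALP. Of 25 initiation factors, 7 were higher and 0 lower in ILCpro_KO over ILCpro_WT, with a median of 0.21, beside 27.5% and 8.16% of all genes. Eif3l, a subunit of initiation factor eIF3, had the highest ratio at 0.49.

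Ribosome assembly factors gave a like result. Of 27 measured, 4 were higher and 0 lower in ILCpro_KO over ILCpro_WT, with a median of 0.22 against 0.14 over all genes. Nop56, of the box C/D particle that guides rRNA methylation, stood at 271 CPM in ILCpro_KO, 198 CPM in ILCpro_WT and 257 CPM in ALP. Ncl, which encodes nucleolin, stood at 1061 CPM in ILCpro_KO, 830 CPM in ILCpro_WT and 931 CPM in ALP. Of 12 other mRNAs known to carry a 5′ TOP element, 2 were higher and 0 lower in ILCpro_KO over ILCpro_WT, 0 and 3 in ILCpro_WT over ALP, and 0 and 0 in ILCpro_KO over ALP, with a median of 0.08 in ILCpro_KO over ILCpro_WT. Of 58 mitochondrial ribosomal proteins, which build the separate ribosome of that organelle, 6 were higher and 0 lower in ILCpro_KO over ILCpro_WT, with a median of 0.08. All of these shares of higher genes lie below or near that of all genes, and none was tested.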

How the data were processed

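For each 10x Chromium v2 library the authors deposited a matrix of raw UMI counts, genes by barcodes. Among tools, Cell Ranger 2.0.1, STAR 2.5.1b and bcl2fastq 2.17 stand in the submitters' processing notes, with mm10 as genome; what each did and its settings are not given in the sources used here. Cells with at least 500 genes and at most 10% mitochondrial UMIs were kept, from 716 barcodes in ILCpro_KO, 1834 in ILCpro_WT and 812 in ALP. UMIs were summed per library, cycle class and cluster. Log2 ratios added 10 CPM to each value, and on the ribosomal scale 10 to shares expressed per 1000000 ribosomal UMIs; folds are plain ratios. A member or gene was measured if 50 CPM was reached in the higher of both libraries, and called at a log2 ratio of 0.322. Intervals are exact at 95% (Clopper-Pearson for shares, Poisson for levels, conditional binomial for ratios) and cover counting error only; the range given for a difference between cycle classes sets the bounds of one share against the opposite bounds of the other. Scanpy 1.11.5 gave cycle scores on 1000 UMIs per cell and, with leidenalg 0.10.2, clusters at resolution 1.0 from 2000 variable genes, 30 components and 15 neighbours. Doublets were scored with Scrublet and kept; a variant without the top-scoring 0.8% per 1000 barcodes lost 4, 27 and 5 cells of ILCpro_KO, ILCpro_WT and ALP. Shared 3′ sequence came from 1 principal GENCODE vM21 transcript per member on GRCm38, the build of mm10. Ratios were tested on simulated data. The members, lists and alternatives were chosen with earlier results of these data known; Rpl6l was added to the paralogs, and 3 alternatives (without other lineages, with -ps rows, without members of shared 3′ sequence) were added, after seeing the files. Named members are the 5 highest and 5 lowest ratios per comparison, the 5 with the most UMIs, the 4 with the widest cluster range, and the lists of paralogs, stalk, X-linked and ubiquitin fusion genes with the extremes of the other lists; Rpl9, Rps12, Rpl22, Rpl4, Rpl7, Rps6, Rpsa and the genes outside the rule were named after their values were seen. Some genes that this rule names are not reported here.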

Additional observations from a re-analysis of the deposited data

Results flagged for a closer look

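Signal lay in rows that the comparisons of ribosomal protein genes left out. The 16 rows whose symbols carry -ps, copies of ribosomal protein genes by name, took 0.926% of UMIs in ILCpro_KO, 0.836% in ILCpro_WT and 1.08% in ALP, far above the limit of 3 counts per library. Added to the members' own UMIs they made up 2.76% of the total in ILCpro_KO, 2.168% in ILCpro_WT and 3.02% in ALP. Whether these UMIs come from the copies or from their parent genes was not tested.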

How the results depend on the processing

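The order of the ribosomal share, lowest in ILCpro_KO and highest in ILCpro_WT, held under each alternative run. In ILCpro_KO, ILCpro_WT and ALP the shares were 32.8%, 38.4% and 35.7% in cells of 2000 to 5000 UMIs, 34.6%, 39.1% and 36.2% in G1 cells, and 32.5%, 37.4% and 34.9% as means of per-cell shares. They were 32.6%, 37.8% and 34.7% without the clusters of other lineages, where the cluster led by Aif1 and Cd74 stayed in. Without mitochondrial genes in the denominator they were 33.0%, 38.0% and 35.0%. For subunit genes alone they were 32.2%, 37.2% and 34.1%, and with the -ps rows 33.6%, 38.5% and 35.7%. With at least 1000 genes and at most 5% mitochondrial UMIs, the shares were 32.7%, 37.9% and 34.7%. G2/M minus G1 stayed negative: -3.44, -5.26 and -3.60 points with classes from 2000 UMIs per cell, -3.41, -4.22 and -3.52 with unthinned cells, and -3.76, -3.81 and -1.44 in cells of 2000 to 5000 UMIs.

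Counts of members apart from the ribosomal sum changed with the members included and with the scaling. Without the 20 members of shared 3′ sequence, ILCpro_KO over ILCpro_WT had 4 higher and 0 lower in place of 9 and 2, ILCpro_WT over ALP 3 lower in place of 9, and ILCpro_KO over ALP 1 lower in place of 5, with fewer genes measured by construction. The count of 2 lower became 9 scaled to the library total, and 1 each at a minimum of 200 CPM and in cells of 2000 to 5000 UMIs. Counts of 0 higher became 1 in ILCpro_WT over ALP scaled to the library total, and 1 in ILCpro_KO over ALP in G1 cells. The cause was not tested. Of 462 values of single members under alternatives, 239 stayed within their counting interval and 223 moved beyond it. The sign of some log2 ratios depends on the scaling. In ILCpro_KO over ILCpro_WT, Rpl5 came to 0.17 scaled to the ribosomal sum and -0.04 scaled to the library total. No paired analysis was possible because each group is 1 library. ILCpro_WT has the lowest depth per cell, which limits low members such as Rpl10l, Rpl3l and Rpl39l.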
